A study of Homo sapiens with 4 samples.

Results

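Of the 458932 distinct peaks in eCLIP replicate 1, 221 lay over a peak of the other strand, which is 0.0482% of the list (Wilson 95% interval 0.0422 to 0.0549). A peak was counted when it shared at least 1 base with a peak of the same list on the opposite strand, and an interval listed under several genes was counted once. These 221 peaks, called paired peaks here, formed 113 overlaps of a plus-strand with a minus-strand peak. They held 110 plus-strand and 111 minus-strand peaks, and 5 of them met more than 1 partner. They were chosen by their position in eCLIP replicate 1, so their number, reads and positions in that list are descriptions. Their values in eCLIP replicate 2 and in the inputs played no part in the choice.

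RNA contacts of ZFR, which binds RNA through zinc fingers, were mapped by eCLIP, in which ultraviolet light joins a protein to the RNA it touches and the joined fragments are recovered with an antibody and sequenced. The cells were HEK-293 Flp-In TREx cells, a human embryonic kidney line, and per the labels all 4 libraries came from cells with FLAG-ZFR stably integrated at the FRT site. They were polyclonal and had received doxycycline at 1 µg/mL for 48 to 72 h to switch on the transgene, so the protein mapped is an induced, tagged copy, and crosslinking used 400 mJ/cm2. The 4 libraries are 2 eCLIP libraries and 2 size-matched inputs, which sample RNA from the same gel region without the pull-down. Whether libraries of one kind stem from separate cultures is not in the labels, so their spread may be technical. Values listed for all 4 libraries follow the order eCLIP replicate 1, eCLIP replicate 2, input 1, input 2.

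Where both strands of a stretch of DNA are transcribed, the resulting RNAs are complementary and can pair into double-stranded RNA. Such RNA is edited by ADAR enzymes, cut by DICER1 and DROSHA, and sensed by innate immune proteins such as EIF2AK2 and IFIH1. ZFR shares its DZF domain with STRBP, a protein that binds double-stranded RNA. Genes of opposite strands can overlap at their 3′ ends (tail to tail), at their 5′ ends (head to head), or with one gene inside the other. Peaks on both strands show that reads from the pooled cells were assigned to both strands of the same place. They do not show that the RNA was made at that place, that the strands were paired or that they came from the same cell.

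The files pair no gene name with their 17764 gene identifiers, and 0 identifiers were found in the RefSeq table, which lists 59792 genes. Places are therefore given by hg19 coordinates counted from 1. Each peak's name closes with a whole number of at least 3, which is taken here as its reads, although the files do not say so.

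The paired peaks were somewhat stronger and wider than the list they came from. Their median was 5 reads and 32 bases, against 4 reads and 28 bases over all peaks of eCLIP replicate 1. Peaks with over 10 reads made up 18.6% of the paired peaks and 8.19% of the list, and peaks with 3 reads made up 22.2% and 32.2%. A deposited p-value of 0.001 or lower was held by 37.1% of the paired peaks and 23.1% of the list. Paired peaks lay on 20 chromosomes, and chromosome 19, which is dense in genes, held 52 of them (23.5%) while it held 5.37% of all peaks. Chromosome 19 also held 12.7% of the peaks that lay inside the span of a gene on the other strand. A gene's span here runs from its first to its last peak over the 4 lists.

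Applied to the other lists, the same rule found 18 paired peaks among 39168 in eCLIP replicate 2, 7 among 60227 in input 1 and 21 among 10483 in input 2. The shares were 0.0460% (0.0291 to 0.0726), 0.0116% (0.0056 to 0.0240) and 0.200% (0.131 to 0.306). The eCLIP libraries thus lay between the inputs, with input 2 highest and input 1 lowest. The mean log2 share in eCLIP was below that of the inputs by a difference of -0.037, with p = 1 in a two-sided exact permutation test over the 4 libraries, whose smallest possible p is 0.33. Without input 1 the difference was -2.09 and without input 2 it was 2.02, so the sign rested on which input was kept. These shares also move with list length, which runs from 10483 to 458932 peaks, and the depth of the libraries is unknown.

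**Figure D1:**
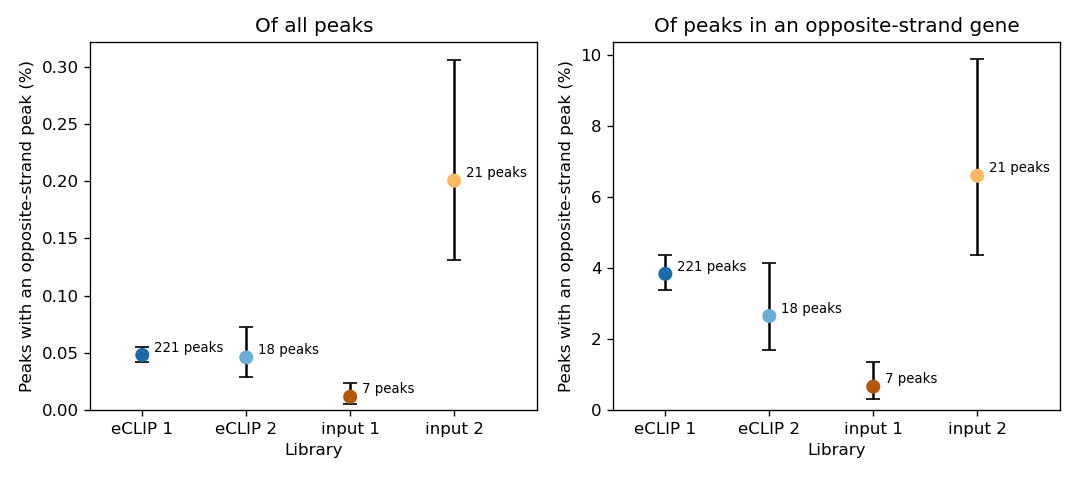
Share of peaks with an opposite-strand peak in each of the 4 libraries, in percent of all distinct peaks (left) and of peaks inside the span of an opposite-strand gene (right). Points are single libraries and bars are Wilson 95% intervals, which cover counting error only; both eCLIP points (0.0482% and 0.0460%) lie between input 1 (0.0116%) and input 2 (0.200%).

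Overlap was only possible where genes of both strands had peaks. In eCLIP replicate 1, 5756 peaks, or 1.25% of the list, lay inside the span of an opposite-strand gene, and 3.84% of those (3.37 to 4.37) were paired. The same share was 2.65% (1.68 to 4.15) in eCLIP replicate 2, 0.660% (0.320 to 1.36) for input 1 and 6.60% (4.36 to 9.88) for input 2. Input 1 and input 2 again lay on either side of the eCLIP libraries.

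On the mitochondrial chromosome, whose DNA is transcribed from both strands over most of its length, 0 peaks were paired in any of the 4 lists. In eCLIP replicate 1 that chromosome held 227 plus-strand peaks with 104918 reads and 10 minus-strand peaks with 1658 reads. The minus strand took 1.56% of the mitochondrial reads in eCLIP replicate 1, 3.00% in its replicate, and 1.32% and 0.199% in the inputs.

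Peaks of opposite strands did not crowd together at short distance in eCLIP replicate 1. Midpoints of plus-strand and minus-strand peaks lay within 50 bases of each other in 181 cases, or 90.5 per 50 bases. Between 50 and 1000 bases the number per 50 bases had a median of 100.5 and ran from 71 to 137. In eCLIP replicate 2 there were 7 per 50 bases within 50 bases and a median of 4 farther out, where single bins reached 9. Input 1 had 3.5 within 50 bases and a median of 3.5 farther out. Input 2 had 5.5 and 1, and none of its other bins held more than 4. A rise at short distance beyond the range of the other bins was therefore seen in input 2, from 11 pairs of peaks, and not in the other 3 lists.

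The short distances were uneven in direction in eCLIP replicate 1. The 50 bases in which the minus-strand midpoint lay at the higher coordinate held 121 pairs, and the 50 bases on the other side held 60, below every bin farther out. The bin of 121 was the highest within 500 bases on either side, where the next held 111. Bins beyond 500 bases reached 137. Among the 113 overlaps the minus-strand midpoint was higher in 76, lower in 35 and equal in 2, and the median shift was 8 bases. In 56 overlaps each peak shared its 3′ part with the other, in 20 each shared its 5′ part, and in 37 one peak lay within the other. Gene arrangements were read from the first and last peaks of each gene, paired peaks included. A split of the overlaps by arrangement is therefore partly fixed by the overlaps themselves. With that limit, the lean was present where the genes lay tail to tail, with 29 overlaps at the 3′ parts and 7 at the 5′ parts. It was also present where one gene lay inside the other, with 25 and 10. The few overlaps of head-to-head genes had 2 and 3. Overlaps whose weaker peak had over 5 reads showed 11 and 3. By the same measure, overlaps at the 3′ and at the 5′ parts numbered 5 and 1 in eCLIP replicate 2, 2 and 0 in input 1, and 2 and 2 in input 2, where in 8 one peak lay within the other. The minus-strand midpoint was the higher one in 67.3% of the overlaps of eCLIP replicate 1 (58.2 to 75.2), 6 of 9 of eCLIP replicate 2 (35.4 to 87.9), 4 of 4 of input 1 (51.0 to 100) and 8 of 12 of input 2 (39.1 to 86.2). In eCLIP replicate 1, 5 peaks entered more than 1 overlap, in input 1, 1 did, and in input 2, 3 did. Overlaps of these lists are thus not all independent, although the intervals treat them so. The few overlaps of the shorter lists leave their lean unsettled.

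**Figure D2:**
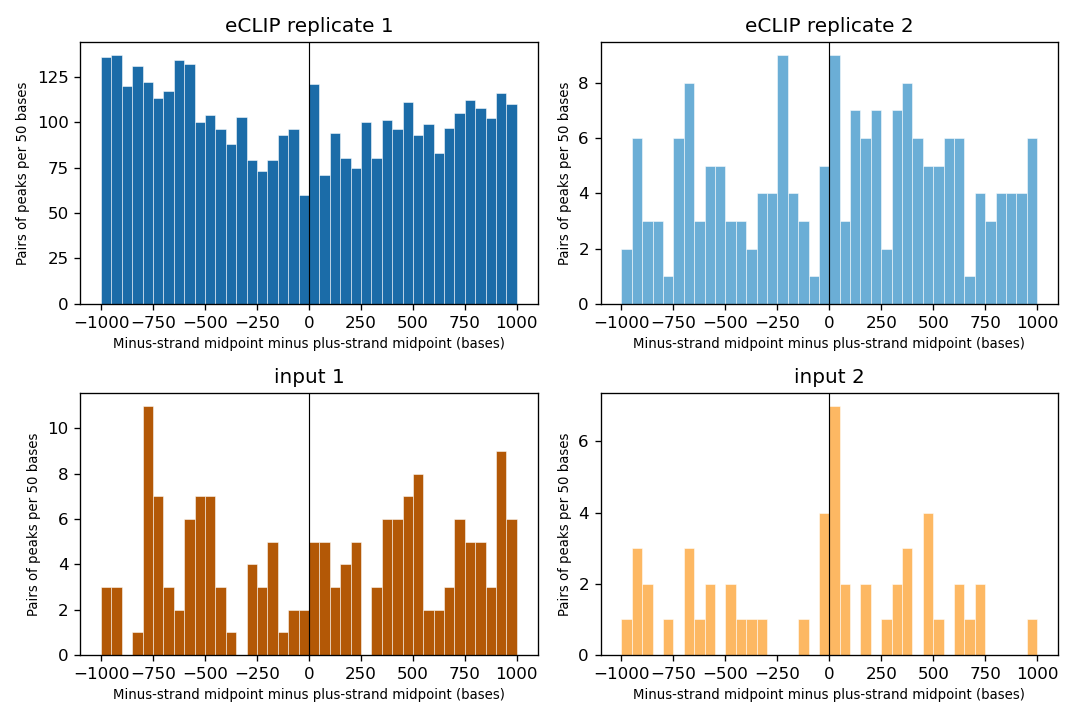
Number of pairs of a plus-strand and a minus-strand peak per 50 bases of distance between their midpoints, within 1000 bases, in each library. Values right of 0 have the minus-strand peak at the higher coordinate; in eCLIP replicate 1 the bin right of 0 holds 121 pairs and the bin left of it 60.

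The overlaps themselves were short, with a median of 16 shared bases (quartiles 9 and 24) and a range of 1 to 51. In 83 of 113 overlaps at least 10 bases were shared, 4 shared a single base, and 0 had the same start and end on both strands. Close to the limit of the rule, the 34 overlaps with 1 to 10 shared bases had a median of 4 reads in the weaker and 7.5 in the stronger peak. Another 29 pairs missed each other by a gap of 0 to 9 bases, and their medians were 4 and 10 reads.

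Most overlaps joined a peak at or near the minimum of 3 reads to a stronger one. The weaker peak had 3 reads in 43 of the 113 overlaps, and both peaks had 3 reads in 7. The weaker strand held a median of 37.5% of the reads of an overlap (quartiles 26.7% and 43.8%, range 4.48% to 50.0%). The plus strand was stronger in 47 overlaps, the minus strand in 53, and 13 were even. In 15 overlaps the stronger peak had over 5 times the reads of the weaker. The widest gap was on chromosome 10, where a minus-strand peak of 128 reads at 103124612 to 103124650 lay over a plus-strand peak of 6 reads at 103124589 to 103124622. Both peaks had over 10 reads in only 5 of the 113 overlaps.

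**Figure D3:**
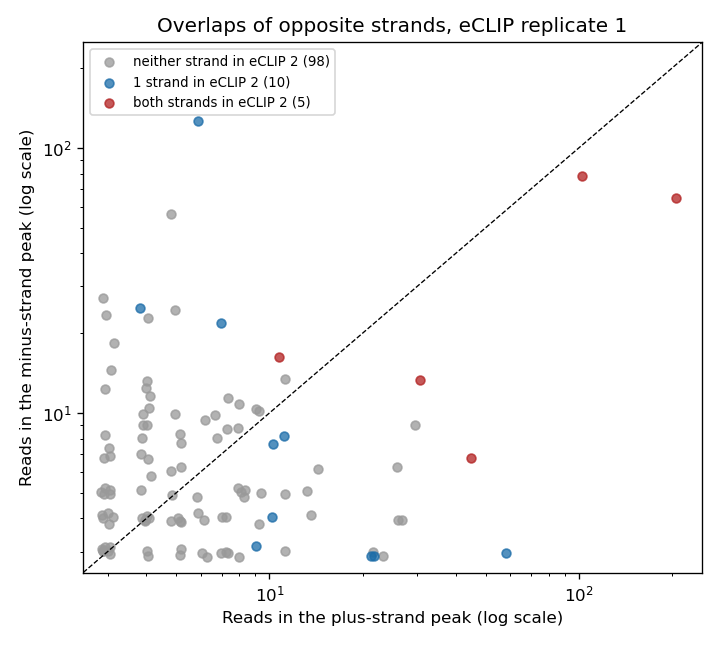
Reads in the plus-strand peak against reads in the minus-strand peak for the 113 overlaps of eCLIP replicate 1, on log axes with a small random shift so that equal values show; the dashed line marks equal reads. Colours give whether neither strand (98 overlaps), 1 strand (10) or both strands (5) had a peak at the same place in eCLIP replicate 2, and the overlaps with most reads on both strands are among the last.

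Replication was examined in eCLIP replicate 2, which the choice did not use. Of the 221 paired peaks 19, or 8.60% (5.57 to 13.0), were overlapped on their own strand by a peak of eCLIP replicate 2, where 2.91% of all peaks of eCLIP replicate 1 were. The peaks found again were those with more reads. Of the 41 paired peaks with over 10 reads, 15 were found, or 36.6% (23.6 to 51.9), beside 17.2% of all peaks of that size. Input 1 met 6 of these 41, or 14.6% (6.88 to 28.4), beside 7.32%, and input 2 met 4, or 9.76% (3.86 to 22.5), beside 4.89%. Of the 59 with 6 to 10 reads, 4 were found, or 6.78% (2.67 to 16.2), beside 3.65%. None of the 49 with 3 reads was found, which allows a share of up to 6.12%, nor of the 72 with 4 to 5 reads, which allows up to 4.17%, and the shares over all such peaks, 0.545% and 1.33%, lie under those limits.

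Both strands of the same overlap were found again in 5 of 113 cases, or 4.42% (1.90 to 9.94), and all 5 lay in 2 places. Input 1 held peaks on both strands of 1 of the 113, or 0.885% (0.156 to 4.84), and input 2 of 2, or 1.77% (0.487 to 6.22), and these intervals overlap that of eCLIP replicate 2. The 2 places were chromosome 1 between 565279 and 569439, with 2 overlaps, and chromosome 5 between 134259651 and 134262789, with 3. They held 4 of the 5 overlaps with over 10 reads on both strands. Both places are known as nuclear copies of mitochondrial DNA, a statement from general knowledge of the genome that was not checked on sequence here. How far mitochondrial RNA accounts for their peaks was not tested. Mitochondrial reads made up 3.62%, 9.10%, 1.75% and 31.7% of the reads in peaks in the 4 libraries.

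The strongest overlap by its weaker strand was on chromosome 5, with a plus-strand peak at 134262721 to 134262776 and a minus-strand peak at 134262744 to 134262789. The plus strand had 101, 57, 3 and 3 reads in the 4 libraries, and the minus strand had 82, 16, 9 and 9. It was the single overlap of the 113 with peaks on both strands in all 4 libraries, with the plus strand stronger in both eCLIP libraries and the minus strand stronger in both inputs.

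The second was on chromosome 1, with a plus-strand peak at 569327 to 569415 and a minus-strand peak at 569382 to 569439. The plus strand had 208, 35, 6 and 11 reads in the 4 libraries. The minus strand had 65 and 18 reads in the eCLIP libraries, 3 in input 2, and no listed peak in input 1. The plus strand was the stronger one wherever both were listed.

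The remaining 3 recurrent overlaps had no peak in either input. On chromosome 5, the plus-strand peak at 134261641 to 134261692 had 31 and 11 reads in the eCLIP libraries, and its minus-strand partner at 134261661 to 134261699 had 13 and 6. The plus-strand peak at 134259699 to 134259740 had 11 and 14 reads, and its partner at 134259651 to 134259739 had 16 and 5, so the stronger strand changed between the libraries. On chromosome 1, the plus-strand peak at 565279 to 565344 had 43 and 6 reads and its partner at 565292 to 565342 had 7 and 6. This last overlap was the longest of all, at 51 shared bases.

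**Figure D4:**
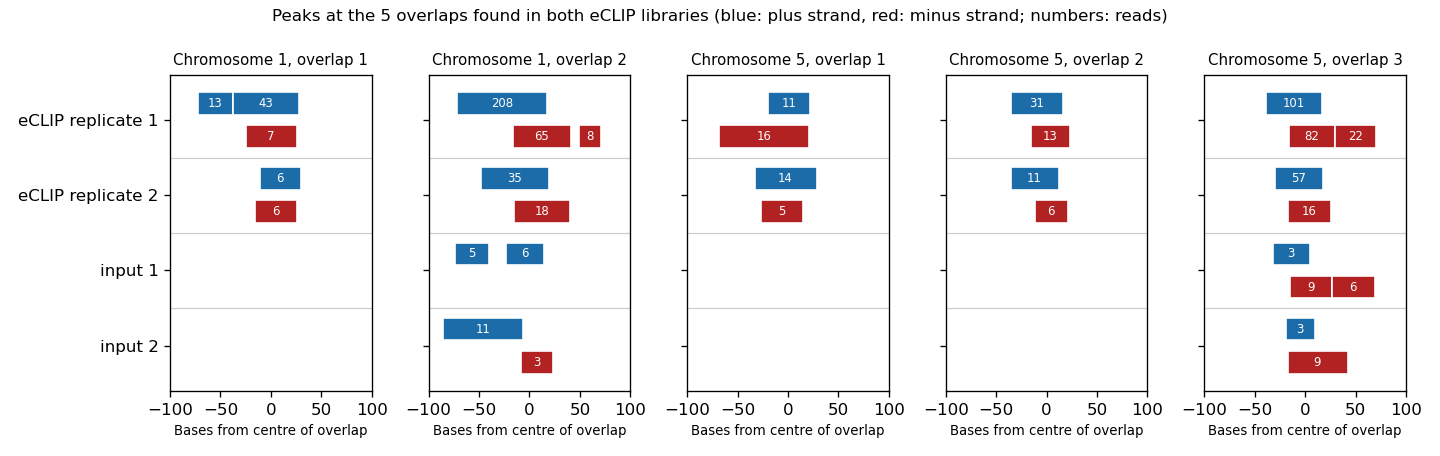
Peaks of the 4 libraries around the 5 overlaps found on both strands in eCLIP replicate 2, drawn to scale in bases from the centre of each overlap of eCLIP replicate 1. Blue boxes are plus-strand and red boxes minus-strand peaks with their reads; the third overlap on chromosome 5 has both strands in all 4 libraries, and 3 of the 5 have no input peak over the paired peaks.

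These 2 places were set aside after the values were known. Of the remaining 211 paired peaks, 9 were found on their strand in eCLIP replicate 2, or 4.27% (2.26 to 7.91), beside 2.91% of all peaks and 4.26% (3.76 to 4.81) of peaks inside the span of an opposite-strand gene. Of the 32 with over 10 reads, 6 were found, or 18.8% (8.89 to 35.3), beside 17.2% and 21.0%. By construction 0 of the remaining 108 overlaps were found on both strands.

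Where 1 strand of an overlap was found again, it was the stronger one. This held for all 10 such overlaps, which rest on 9 peaks. The chromosome 10 peak of 128 reads had 39 reads in eCLIP replicate 2, and neither input listed a peak over it. Minus-strand peaks in the 161 bases shared by its gene pair held 310, 39, 446 and 189 reads in the 4 libraries. The RNA of this stretch was thus abundant in both inputs too. On chromosome 12 the plus-strand peak at 112704963 to 112705010 had 57 reads and then 5, with 4 in input 1, while its partner had 3 reads in eCLIP replicate 1. On chromosome 16 the minus-strand peak at 69357516 to 69357575 had 21 reads and then 11, over a partner of 7. On chromosome X the plus-strand peak at 73201173 to 73201216 had 21 reads and then 4, and it met 2 minus-strand peaks of 3 reads. The partners not found again had between 3 and 8 reads.

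The inputs gave the background for the same positions. Input 1 held a same-strand peak over 7 of the 221 paired peaks, or 3.17% (1.54 to 6.39), beside 1.53% of all peaks of eCLIP replicate 1. Input 2 held one over 4, or 1.81% (0.706 to 4.56), beside 0.634%. Either input met 8, or 3.62% (1.85 to 6.98), beside 1.94%. Without the 2 recurrent places this was 4 of 211, or 1.90% (0.740 to 4.77), and input 2 met none of them, which allows a share of up to 1.42%. Of the 221 paired peaks, 14 (6.33%) were found in eCLIP replicate 2 and in neither input, beside 2.48% of all peaks of eCLIP replicate 1. Of those 14, 6 lay in the 2 recurrent places, and outside these places the count was 8 of 211 (3.79%).

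**Figure D5:**
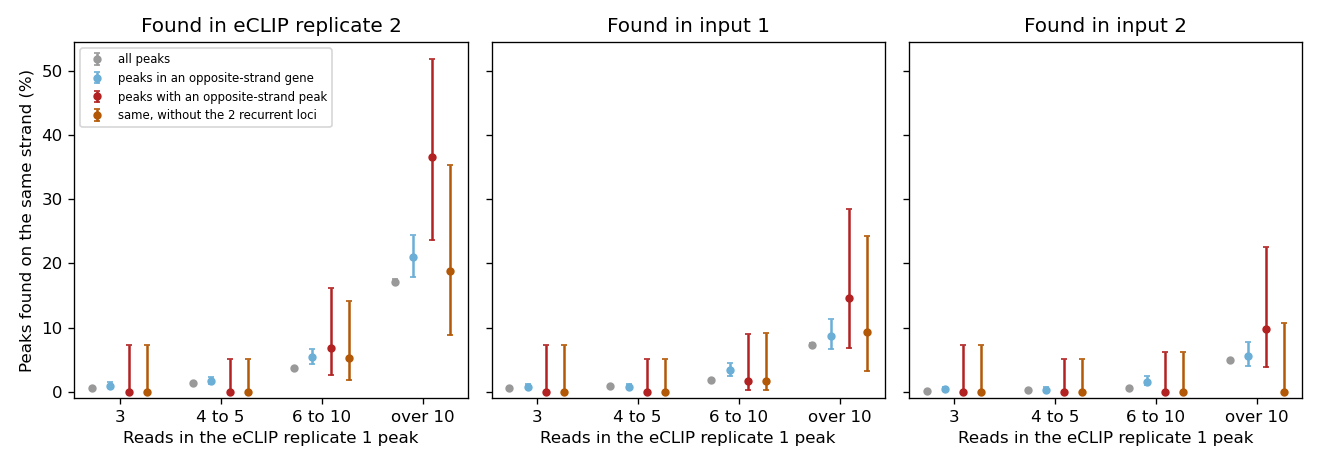
Share of eCLIP replicate 1 peaks overlapped on their own strand by a peak of eCLIP replicate 2 (left), input 1 (middle) or input 2 (right), by the reads of the peak. Points are shares and bars Wilson 95% intervals; for peaks with over 10 reads, paired peaks reach 36.6% in eCLIP replicate 2 and 18.8% without the 2 recurrent places, beside 17.2% of all peaks.

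Overlaps particular to the shorter lists were also seen. Of the 9 overlaps of eCLIP replicate 2, 5 had both strands in eCLIP replicate 1 and 3 had neither. Of these 3, 1 lay on chromosome 22, where peaks of 7 and 4 reads at 24314165 to 24314206 and 24314173 to 24314213 had no counterpart in any other list. Of the 12 overlaps of input 2, 2 had both strands in eCLIP replicate 1. On chromosome 17 at 56426165 to 56426192, the inputs had both strands and eCLIP did not: the plus strand had 3 reads in input 1 and 10 in input 2, the minus strand 4 and 20, eCLIP replicate 1 listed a plus-strand peak of 9 reads and no minus-strand peak, and eCLIP replicate 2 listed neither. These places were picked after their values were seen.

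Across libraries, a peak of one list met the same strand of another list far more often than the opposite strand. Of the eCLIP replicate 2 peaks, 12927 (33.0%) met eCLIP replicate 1 on the same strand and 28 (0.0715%) on the opposite strand. For input 1 peaks these were 7631 (12.7%) and 38 (0.0631%), and for input 2 peaks 2566 (24.5%) and 27 (0.258%). Only 1.73% of the eCLIP replicate 2 peaks, 1.76% of input 1 and 3.03% of input 2 lay inside the span of an opposite-strand gene. Most peaks could thus not meet the opposite strand, and the contrast does not measure how strand-specific the libraries are.

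By gene, the 113 overlaps fell in 102 pairs of 1 plus-strand and 1 minus-strand gene, with 184 genes in all. A peak in overlapping genes of one strand counts for each of them, and pairs joined through shared genes formed 82 loci, of which 57 held 1 overlap and none held more than 3. Spans of genes overlapped across strands in 917 pairs, and in 361 of those eCLIP replicate 1 had peaks of both strands in the shared stretch. In the smaller gene of a pair the median was 7 peaks over the 4 lists, and in 15 pairs it had 1 peak, so its span was that peak.

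Tail to tail was the arrangement of 46 of the 102 gene pairs (45.1%), head to head that of 5 (4.90%), and in 51 (50.0%) one gene lay inside the other. Among the 361 pairs with both strands in eCLIP replicate 1 these shares were 51.5%, 9.42% and 39.1%. Paired peaks lay towards the 3′ end of the spans of their genes. In genes with at least 20 peaks over the lists, with each span cut into 5 equal stretches, the 3′-most one held 77 of their 144 listings, or 53.5% (45.3 to 61.4), beside 17.0% of all peaks of eCLIP replicate 1 and 35.5% of peaks inside an opposite-strand gene's span. The 5′-most one held 6.94% (3.82 to 12.3), beside 28.5% and 16.0%. The share of the 3′-most stretch was thus above that of both comparison sets, and the intervals treat peaks of 1 gene as independent. Paired peaks were chosen by position, and some of them set the end of a span themselves. The arrangements and these shares are therefore descriptions, and the comparison sets do not test them.

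Peaks on both strands of a shared stretch, at any position, were found in eCLIP replicate 2 in 17 of the 102 gene pairs (16.7%), and in 46 of the 361 pairs (12.7%) that had both strands in eCLIP replicate 1. Input 1 had both strands in 21 (20.6%) and 62 (17.2%), and input 2 in 3 (2.94%) and 8 (2.22%). Outside the 2 recurrent places, 12 pairs had both strands in eCLIP replicate 2. Input 1 thus had both strands in more of the 102 pairs than eCLIP replicate 2 did, and input 2 in fewer. The lists of input 1, eCLIP replicate 2 and input 2 hold 60227, 39168 and 10483 peaks, the same order. These counts were not adjusted for list length.

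The most paired peaks in a gene pair were 6, in 4 pairs, and another 15 pairs tied at 4. Of these 19 pairs 8 lay on chromosome 19. In 9 of the 19 eCLIP replicate 2 had peaks of both strands in the shared stretch, in 8 input 1 did, and in 0 input 2 did. None of their overlaps recurred on both strands in eCLIP replicate 2. The 4 pairs with 6 paired peaks are described here, with the 6 of the 15 tied pairs whose paired peaks had most reads. The choice also bears on replication: eCLIP replicate 2 had both strands in 7 of these 10 pairs and in 2 of the 9 tied pairs left out. It had both strands in each of the 4 pairs with 6 paired peaks and in 5 of the 15 tied pairs. The contrast thus mixes the number of paired peaks with their reads, and neither was tested.

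The first pair, ENSG00000267169.1 on the plus strand and ENSG00000072071.12 on the minus strand of chromosome 19, lay tail to tail with 6 paired peaks between 14274947 and 14278868. Their shared stretch of 18048 bases held 22, 1, 1 and 1 plus-strand peaks in the 4 libraries, and 30, 11, 6 and 0 minus-strand peaks. The minus strand had the more peaks in each list but that of input 2. In its most even overlap, a plus-strand peak of 8 reads at 14274947 to 14274987 lay over a minus-strand peak of 11 reads at 14274955 to 14274981.

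Further along chromosome 19, a plus-strand gene inside a minus-strand gene held 6 paired peaks between 37070323 and 37074338. Its stretch of 17453 bases had 25, 1, 3 and 0 plus-strand and 46, 11, 9 and 5 minus-strand peaks in the 4 libraries, so the minus strand led in each. Near the end of that chromosome, 6 paired peaks lay between 58317356 and 58323833, with 16, 2, 0 and 0 plus-strand and 10, 1, 2 and 0 minus-strand peaks. The fourth pair with 6 paired peaks, on chromosome 16 between 70364020 and 70376008, had 13, 2, 0 and 0 plus-strand and 28, 2, 5 and 0 minus-strand peaks. In these last 2 pairs both eCLIP libraries had both strands and neither input did. The eCLIP replicate 2 peaks held few reads. The chromosome 19 stretch had 10 on the plus and 3 on the minus strand, and the chromosome 16 stretch 8 and 7. Input 1 had more minus-strand peaks than eCLIP replicate 2 in both stretches.

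Of the pairs with 4 paired peaks each, ENSG00000267858.1 and ENSG00000099326.4 lay tail to tail on chromosome 19, with paired peaks between 59074900 and 59076223 in eCLIP replicate 1. The pair had 13, 2, 0 and 0 plus-strand and 14, 8, 2 and 1 minus-strand peaks in the 4 libraries. Its paired peaks in eCLIP replicate 2 lay elsewhere in the same stretch. There a plus-strand peak of 4 reads at 59077183 to 59077209 met a minus-strand peak of 20 reads at 59077204 to 59077247, and another of 3 reads at 59077544 to 59077564 met one of 12 reads at 59077543 to 59077617. This gene pair thus had opposite-strand overlaps in both eCLIP libraries, at positions that differed.

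Among the pairs described here, both on chromosome 17 lay tail to tail, and their plus-strand peaks were the more numerous. The pair with paired peaks between 16354596 and 16356314 had 57, 24, 4 and 4 plus-strand and 16, 2, 0 and 0 minus-strand peaks. The pair with paired peaks between 29111136 and 29112974 had 36, 17, 7 and 2 plus-strand and 6, 1, 2 and 0 minus-strand peaks. On chromosome 16, the tail-to-tail pair with paired peaks between 69357516 and 69358732 had 8, 0, 0 and 0 plus-strand and 12, 2, 1 and 0 minus-strand peaks. On chromosome 19, 2 pairs share a minus-strand gene and the same paired peaks, between 58777949 and 58785625, and had 31, 16, 2 and 1 plus-strand and 5, 0, 1 and 0 minus-strand peaks. In these 4 places, the strand with more peaks in eCLIP replicate 1 was also the one with more in eCLIP replicate 2.

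Outside the recurrent places, 6 overlaps completed the 10 with most reads on the weaker strand. The tenth had 8 such reads, where 4 overlaps tied, and the 2 with more reads on the stronger strand were taken. On chromosome 5, a plus-strand peak of 11 reads at 177576788 to 177576832 lay over a minus-strand peak of 13 reads at 177576769 to 177576844, with 45 shared bases. It had no peak on either strand in eCLIP replicate 2, and input 1 listed a minus-strand peak of 6 reads there. On chromosome 16, peaks of 31 and 9 reads lay at 29821000 to 29821032 and 29821023 to 29821075. On chromosome 14, peaks of 9 and 10 reads lay at 104164056 to 104164061 and 104164014 to 104164066, and on chromosome 20, peaks of 9 and 10 reads lay at 34231132 to 34231169 and 34231119 to 34231159. The chromosome 16 and chromosome 20 overlaps each belong to 2 gene pairs. None of the last 3 overlaps had a peak on either strand in the other 3 lists. On chromosome 16, peaks of 11 and 8 reads lay at 732372 to 732404 and 732384 to 732417; eCLIP replicate 2 listed the plus strand with 3 reads and input 1 the minus strand with 8. The last of the 10 is the chromosome 19 overlap of 8 and 11 reads given above, with no peak on either strand in the other lists. Of the tied overlaps left out, 1 joins the same minus-strand peak on chromosome 16 to a plus-strand peak of 10 reads at 732376 to 732402, listed under another gene. The other, on chromosome 19, has peaks of 8 and 9 reads at 12781306 to 12781368 and 12781269 to 12781317, and no peak on either strand in the other lists.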

How the data were processed

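The 4 libraries were grouped by their titles. Per the submitters' processing notes, the tools were cutadapt, STAR and SAMtools and the build hg19; the sources used here name no versions, peak caller or annotation. The authors deposited 1 peak list per library, with a p-value of at most 0.05 for each peak. The deposited score of a peak restates its p-value and was not used further. Depth is unknown, since whole libraries were not counted.

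Lines with the same interval and strand were counted once, with their highest reads and lowest p-value. Overlaps, shares and Wilson 95% intervals were computed with Python 3.11.15, pandas 2.3.3 and SciPy 1.17.1, and the overlap code was tested on simulated lists. Intervals and limits for counts of 0 (3 counts) cover counting error only and treat peaks as independent. With single libraries on each side no test between lists was made, except the exact permutation test named in the text. The text names the 10 gene pairs with most paired peaks (ties to more reads), the 10 overlaps with most reads on the weaker strand (1 per gene pair, ties to more reads on the stronger strand) and the gene pairs whose overlap recurred on both strands in eCLIP replicate 2, plus places said to be chosen after their values were seen. Lists of genes with known antisense partners and of double-stranded RNA-binding proteins were not counted, because the identifiers have no names here. Alternatives changed the shared bases, p-value, reads, merging of touching peaks, list length and chromosomes. The peaks and lists were chosen with earlier results of these data known.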

Additional observations from a re-analysis of the deposited data

How the results depend on the processing

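Under the settings tried, the number of paired peaks fell most with limits on strength or list length, which also cut the list of all peaks. As a share of the eCLIP replicate 1 list it was 0.0482%. With at least 10 shared bases the share was 0.0355%, and with at least 50% of the shorter peak shared 0.0336%. It was 0.0274% with a p-value of 0.001 or lower, 0.0364% with at least 5 reads, 0.0213% with at least 10 reads and 0.0382% at equal length. The number was 221, and 163 with at least 10 shared bases, 154 with at least 50% of the shorter peak shared and 219 with touching peaks merged. It fell to 29 with a p-value of 0.001 or lower, 75 with at least 5 reads, 10 with at least 10 reads and 4 with all lists at 10483 peaks, and the gene pairs fell from 102 to 18, 43, 5 and 2. Under the same 4 settings the share found on its strand in eCLIP replicate 2 was 34.5%, 16.0%, 60.0% and 100% (8.60% in the report), and the share with both strands found 27.6%, 13.3%, 40.0% and 100% (4.52% of paired peaks). Without the 2 recurrent places, an alternative added after the data were seen, these shares were 4.27% and 0%. Under the 4 settings, the paired peaks with both strands found were 8 of 29, 10 of 75, 4 of 10 and 4 of 4. All of them lay in the 2 recurrent places. No shares over all peaks are given at these settings. In the report the share over all peaks rose from 0.545% at 3 reads to 17.2% at over 10 reads. The share over an input peak was 13.8% at a p-value of 0.001 or lower, 10.0% with at least 10 reads and 100% at equal length, where 4 peaks are left. The log2 difference of eCLIP minus input was -0.037. It was 0.26 with at least 10 shared bases, -0.26 without the recurrent places, and between -2.09 and 2.02 with 1 library left out. It could not be computed under the 4 settings on strength and length, where input 1 has no paired peak. With a replicate block it stayed at -0.037 (exact sign-flip p = 1, smallest possible 0.5); over 8914 genes, deviations of same-numbered libraries correlated at r = 0.39, and the labels do not say that the numbers pair the libraries. None of the paired peaks with 3 reads or with 4 to 5 reads was found again in eCLIP replicate 2. Whether the number of reads or the depth accounts for this was not tested.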
